A study of Mus musculus with 8 samples.

Results

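The genes described here are 10 enzymes that act on nucleotides or on RNA and DNA and that are known from antiviral defense: Rsad2, Cmpk2, Samhd1, Nt5c3, Adar, Apobec3, Apobec1, Isg20, Pnpt1 and Eif2ak2. They were picked by symbol, each symbol led to 1 counted gene, and all 10 of the 55536 counted genes so chosen had enough counts to be among the 15998 genes tested. RNA was sequenced from 8 tumors of HCA-1, a mouse hepatocellular carcinoma (HCC) line that had been implanted into the liver of male C3H mice, aged 6 to 8 weeks per the labels and 4 to 6 weeks per the methods of the study. On day 17 after implantation, 4 mice received a single intravenous dose of PFSUV-IMQ, which is imiquimod (IMQ), an agonist of the RNA sensor TLR7, loaded at 4 mg per kg into phospholipid-free small unilamellar vesicles. The other 4 mice received saline and are the control group, and all tumors were taken 3 h after injection. The comparison asks how far a single dose of the loaded vesicles changed the tumor transcriptome. It joins the drug with its carrier, since empty vesicles and free IMQ were not analysed here. Each tumor gave 1 library. PFSUV-IMQ tumors are numbered 1 to 4 in the labels, and control tumors 1, 3, 4 and 5.

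Type I interferons, which TLR7 signaling can induce, switch on many genes through the JAK-STAT pathway and the factor ISGF3, which binds the interferon-stimulated response element (ISRE) of their promoters. Among the products are enzymes that starve, damage or silence viral nucleic acid. Some change the nucleotide pool on which polymerases draw, some deaminate bases in RNA or DNA, some cut RNA from its end, and one stops translation when it meets double-stranded RNA. Several of these enzymes also have relatives that carry out housekeeping steps of the same chemistry.

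Counts per tumor totaled 16883911 to 27687756 in the control group and 17008151 to 18527613 in the PFSUV-IMQ group. Values are normalized CPM, that is counts brought to one library size with edgeR's TMM factors, at which 3 counts correspond to 0.105 to 0.210 CPM, and this limit covers counting error only. PFSUV-IMQ replicate 2 stood apart, with a TMM factor of 0.843 against 0.981 to 1.09 in the other 7 tumors, a mitochondrial share of counts of 6.65% against 1.37 to 5.22%, and 9.64% of counts in its 10 most abundant genes against 7.38 to 9.18%. The part of RNA quality in the results was not tested. The members' log2 fold changes are given with and without PFSUV-IMQ replicate 2. A summed set of 6 hepatocyte markers ranged from 4579 to 34890 CPM in the control group and from 6912 to 37149 CPM in the PFSUV-IMQ group, highest in control replicate 4 and PFSUV-IMQ replicate 2. The 3 HCC markers Afp, Gpc3 and H19 summed to 7.06 to 10.8 CPM in the control group and 5.03 to 10.6 CPM in the PFSUV-IMQ group, so the labeled tumor type was only weakly marked by them. In a bulk tumor, more cells of a type and more RNA per cell cannot be told apart.

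The promoter windows of 4 members are shown because they hold the ISRE core or, for Cmpk2, because it had the largest change of the members without one. The windows run from 250 bases before to 50 bases after the transcription start in RefSeq's GRCm38.p6 annotation and are written on the gene's own strand from 5′ to 3′, with capitals marking the matched motif bases. They lie at chr12:26456403-26456702 on the minus strand (Rsad2), chr12:26468965-26469264 on the plus strand (Cmpk2), chr17:78882523-78882822 on the minus strand (Eif2ak2) and chr15:79892158-79892457 on the plus strand (Apobec3, the first of 2 windows).
Rsad2: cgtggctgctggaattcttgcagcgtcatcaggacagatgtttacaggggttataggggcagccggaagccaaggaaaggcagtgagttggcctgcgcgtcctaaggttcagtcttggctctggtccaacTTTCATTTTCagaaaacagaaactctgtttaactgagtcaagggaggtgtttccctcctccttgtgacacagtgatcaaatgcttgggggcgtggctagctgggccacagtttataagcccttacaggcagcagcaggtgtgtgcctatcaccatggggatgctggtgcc
Cmpk2: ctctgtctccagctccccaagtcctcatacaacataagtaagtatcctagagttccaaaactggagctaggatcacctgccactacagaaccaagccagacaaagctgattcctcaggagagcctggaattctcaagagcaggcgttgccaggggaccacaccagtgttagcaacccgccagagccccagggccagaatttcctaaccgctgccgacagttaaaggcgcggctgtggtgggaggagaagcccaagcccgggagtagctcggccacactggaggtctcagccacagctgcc
Eif2ak2: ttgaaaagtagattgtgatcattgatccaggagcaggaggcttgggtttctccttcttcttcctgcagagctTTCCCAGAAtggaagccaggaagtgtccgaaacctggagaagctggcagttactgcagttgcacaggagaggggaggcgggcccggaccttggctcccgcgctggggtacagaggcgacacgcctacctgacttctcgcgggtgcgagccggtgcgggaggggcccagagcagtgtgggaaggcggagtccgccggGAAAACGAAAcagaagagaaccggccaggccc
Apobec3: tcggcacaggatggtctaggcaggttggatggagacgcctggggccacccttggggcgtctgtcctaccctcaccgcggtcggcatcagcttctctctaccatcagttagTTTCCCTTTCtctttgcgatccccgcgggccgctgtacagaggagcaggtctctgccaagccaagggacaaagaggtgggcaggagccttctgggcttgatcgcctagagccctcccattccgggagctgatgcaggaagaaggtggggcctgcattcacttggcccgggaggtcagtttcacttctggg

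The ISRE core was searched as the letters GAAA, any 2 bases and GAAA again, and the STAT dimer site (GAS) as TTCNNNGAA, each on both strands. All 10 members matched windows, 15 in all. The ISRE core was present in 3 members, Rsad2 (TTTCATTTTC, starting 120 bases before the start site), Apobec3 (TTTCCCTTTC, 140 bases before) and Eif2ak2 (GAAAACGAAA, from base 19 of the transcript), against 3.99% of the 27025 genes with a window. GAS was present in 4 members, Samhd1 (TTCGGAGAA), Adar (TTCAAGGAA), Isg20 (TTCTTGGAA) and Eif2ak2 (TTCCCAGAA), against 9.55% of genes. A form with a single base between the GAAA repeats, GAAANGAAA, was searched after the sequences had been seen. It was present in Adar and Pnpt1, both times as GAAACGAAA, against 3.70% of genes, and in Adar its first 3 bases are the last 3 of the GAS match. No window of Cmpk2, Apobec1 or Nt5c3 held any of the 3 motifs. The Nt5c3 window, at chr6:56901837-56902136 on the minus strand, lies inside the gene. The annotated 5′ end of Nt5c3, at 56923932, was not searched. A match is a string in the window and was not tested for binding.

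After PFSUV-IMQ, 9 of the 10 members rose by edgeR's quasi-likelihood test, in which a call required a Benjamini-Hochberg adjusted p under 0.05 together with a change beyond 1 log2 unit, while 2.26% of all tested genes were called higher. Apobec1 was the member not called. The members' median log2 fold change was 2.03, whereas that of all tested genes was -0.03. In all 10 members every PFSUV-IMQ tumor lay above every control tumor, which was so for 6.00% of tested genes. With limma-voom 9 members were called, against 2.14% of genes, and all 10 were called by the Wald test of DESeq2, by which 3.14% of genes were called higher. When the fold change itself had to exceed 2-fold by edgeR's glmTreat, 5 members passed (Rsad2, Cmpk2, Adar, Nt5c3 and Eif2ak2), against 0.744% of genes. Without PFSUV-IMQ replicate 2, 7 members were called, against 1.78% of genes.

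**Figure D1:**
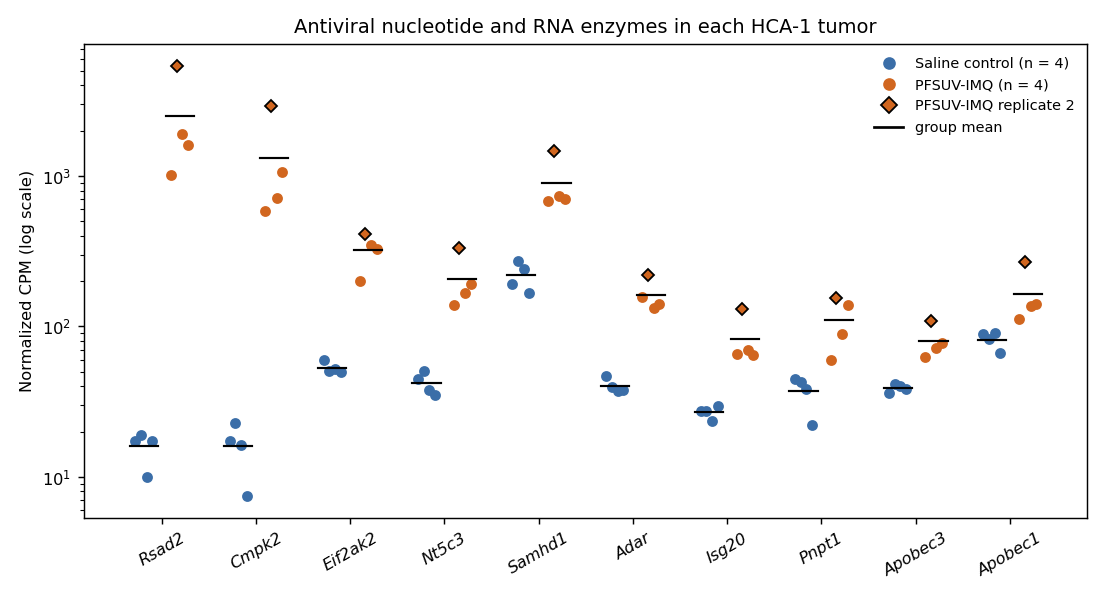
Normalized CPM of each member on a log axis, with 1 point per tumor, control in blue and PFSUV-IMQ in orange, a diamond for PFSUV-IMQ replicate 2 and a bar for the mean of each group of 4. The 2 groups are separate for all 10 genes, from 1.24-fold between the nearest tumors for Apobec1 to 53.8-fold for Rsad2.

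The nucleotide enzymes include the members that changed most. Rsad2 (viperin) is a radical SAM enzyme that turns CTP into a chain-terminating analog. Its level was 17.4, 18.9, 10.1 and 17.4 CPM in control replicates 1, 3, 4 and 5 and 1017, 5417, 1896 and 1608 CPM in PFSUV-IMQ replicates 1 to 4. The lowest PFSUV-IMQ tumor was thus 53.8-fold above the highest control tumor. The fitted log2 fold change of 7.28 ± 0.63 (SE, n = 4 per group, edgeR adjusted p = 0.000594) was 156-fold and ranked 1 of 15998 tested genes.

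Cmpk2 is a mitochondrial kinase of CMP and UMP that supplies nucleoside triphosphates, CTP among them. Its level was 17.3, 22.8, 16.3 and 7.44 CPM in control replicates 1, 3, 4 and 5 and 587, 2913, 714 and 1069 CPM in PFSUV-IMQ replicates 1 to 4. Control replicate 5 was the lowest tumor for Cmpk2, whereas control replicate 4 was the lowest for Rsad2. Cmpk2 had a log2 fold change of 6.37 ± 0.66 (SE, edgeR adjusted p = 0.00121), or 82.5-fold, and ranked 2. Without PFSUV-IMQ replicate 2, which exceeded the median of the other 3 treated tumors 3.37-fold for Rsad2 and 4.08-fold for Cmpk2, the log2 fold changes were 6.54 and 5.61, with edgeR adjusted p values of 4.69e-05 and 0.000173.

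Rsad2 and Cmpk2 are neighbors in mouse and human. In GRCm38, Rsad2 lies on chromosome 12 at 26442746 to 26456452 on the minus strand and Cmpk2 at 26469204 to 26479837 on the plus strand, so that their 5′ ends face each other across 12752 bases. The nearest tested genes outside the pair were not called: Rnf144a, on the Rsad2 side, had a log2 fold change of -0.88 (edgeR adjusted p = 0.404), and Sox11, on the Cmpk2 side, of -0.53 (edgeR adjusted p = 0.716). Rnf144a lies 27492 bases from Rsad2 and had 9 to 67 counts per tumor. Sox11 lies 854427 bases from Cmpk2 and had only 3 to 27 counts per tumor. The log2 ratio of Rsad2 to Cmpk2 was 0.06 ± 0.79 in control and 0.92 ± 0.35 in PFSUV-IMQ tumors (SD, n = 4 each). The difference of 0.86 did not pass (exact two-sided permutation p = 0.114, 0.127 after adjustment over 10 gene pairs).

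Samhd1 hydrolyses deoxynucleoside triphosphates and so lowers the pool for reverse transcription. Its level was 191, 273, 242 and 167 CPM in control replicates 1, 3, 4 and 5 and 683, 1468, 736 and 704 CPM in PFSUV-IMQ replicates 1 to 4. Of the treated tumors, 3 lay close together and replicate 2 lay far above them. Samhd1 rose by 2.04 ± 0.31 on the log2 scale (SE, edgeR adjusted p = 0.00783), and by 1.68 without that tumor (edgeR adjusted p = 0.00309). Nt5c3 is a cytosolic 5′-nucleotidase that dephosphorylates pyrimidine monophosphates. It measured 44.5, 50.5, 38.0 and 35.0 CPM in control replicates 1, 3, 4 and 5 and 138, 331, 168 and 190 CPM in PFSUV-IMQ replicates 1 to 4. The groups lay 2.74-fold apart at their nearest tumors. Its log2 fold change was 2.30 ± 0.28 (SE, edgeR adjusted p = 0.00295), and 1.96 without PFSUV-IMQ replicate 2 (edgeR adjusted p = 0.000651).

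Of the base-editing members, Adar and Apobec3 rose and Apobec1 was not called. Adar encodes ADAR1, which deaminates adenosine to inosine in double-stranded RNA. Its level was 46.6, 39.7, 37.0 and 37.7 CPM in control replicates 1, 3, 4 and 5 and 156, 221, 133 and 141 CPM in PFSUV-IMQ replicates 1 to 4. The spread was narrow in both groups, with a CV of 10.9% and 24.5%, and the log2 fold change was 2.02 ± 0.20 (SE, edgeR adjusted p = 0.000962). Leaving out PFSUV-IMQ replicate 2 gave a log2 fold change of 1.82 (edgeR adjusted p = 0.000332). Gene-level counts do not separate the constitutive short form from the interferon-inducible long form of ADAR1. Chrnb2, a receptor subunit gene on the opposite strand, shares 16.8% of the exon bases of Adar, and the strand setting of the counting is not given in the sources used here. Chrnb2 itself was counted at 1.78 ± 0.59 CPM in control and 3.30 ± 0.75 CPM in PFSUV-IMQ tumors (SD, n = 4) and was not called.

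Apobec3 is a cytidine deaminase that mutates the DNA of retroviruses, and Apobec1 is the deaminase of apolipoprotein B mRNA editing. Apobec3 measured 35.9, 41.1, 40.4 and 38.5 CPM in control replicates 1, 3, 4 and 5 and 63.0, 108, 72.0 and 77.4 CPM in PFSUV-IMQ replicates 1 to 4. Control tumors were within a CV of 5.99%, the smallest of the 10 members. Its log2 fold change of 1.04 ± 0.18 (SE, edgeR adjusted p = 0.0178) lay just past the limit of 1. When single tumors were left out in turn, the call was lost in 5 of 8 cases, those without control replicate 1, 3 or 4 or PFSUV-IMQ replicate 2 or 4, and the log2 fold change ran from 0.84 to 1.14. Without PFSUV-IMQ replicate 2 it was 0.84, with an edgeR adjusted p of 0.0195. The gene D730005E14Rik, on the same strand, shares 7.15% of the exon bases of Apobec3.

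Apobec1 measured 88.9, 81.9, 90.3 and 66.1 CPM in control replicates 1, 3, 4 and 5 and 112, 268, 137 and 141 CPM in PFSUV-IMQ replicates 1 to 4. All treated tumors were above all control tumors, with the nearest 1.24-fold apart. The log2 fold change was 1.01 ± 0.27 (SE, 95% interval 0.40 to 1.62, edgeR adjusted p = 0.106, unadjusted p = 0.00444). By the Wald test of DESeq2 the adjusted p was 0.0298, and without PFSUV-IMQ replicate 2 the edgeR log2 fold change was 0.65 (adjusted p = 0.114). The 2 deaminases were not shown to change by different amounts: their log2 ratio was -1.05 ± 0.22 in control and -0.98 ± 0.22 in PFSUV-IMQ tumors (SD, n = 4, exact two-sided permutation p = 0.686), and a p of that size does not show that they changed alike.

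Isg20 is a 3′ to 5′ exonuclease of single-stranded RNA, and Pnpt1 is the mitochondrial polynucleotide phosphorylase that degrades RNA inside the organelle. Isg20 measured 27.2, 27.5, 23.4 and 29.8 CPM in control replicates 1, 3, 4 and 5 and 65.6, 130, 69.2 and 64.9 CPM in PFSUV-IMQ replicates 1 to 4. The 3 lower treated tumors were nearly level. Isg20 rose by 1.61 ± 0.25 on the log2 scale (SE, edgeR adjusted p = 0.00884), and by 1.29 without PFSUV-IMQ replicate 2 (edgeR adjusted p = 0.00188).

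Pnpt1 measured 44.7, 42.5, 38.5 and 22.1 CPM in control replicates 1, 3, 4 and 5 and 60.0, 154, 88.7 and 138 CPM in PFSUV-IMQ replicates 1 to 4. Here both PFSUV-IMQ replicates 2 and 4 were high and control replicate 5 was low. The log2 fold change was 1.57 ± 0.33 (SE, edgeR adjusted p = 0.0375). The size of the change stayed between 1.35 and 1.78 when single tumors were left out, but the call was lost in 7 of 8 such fits and was kept only without PFSUV-IMQ replicate 1. The adjusted p over these fits ran from 0.0156 to 0.110, and without PFSUV-IMQ replicate 2 it was 0.0768.

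Eif2ak2 encodes PKR, the kinase that phosphorylates eIF2α after binding double-stranded RNA and so halts translation. Its level was 59.8, 50.2, 52.4 and 50.1 CPM in control replicates 1, 3, 4 and 5 and 199, 411, 346 and 326 CPM in PFSUV-IMQ replicates 1 to 4. PFSUV-IMQ replicate 2 exceeded the median of the other treated tumors 1.262-fold, the least of the members, and replicate 1 was the low tumor. The log2 fold change of 2.59 ± 0.23 (SE, edgeR adjusted p = 0.000665), or 6.03-fold, was the third among the members and ranked 138 of all tested genes. Leaving out PFSUV-IMQ replicate 2 gave a log2 fold change of 2.43 (edgeR adjusted p = 0.000439).

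**Figure D2:**
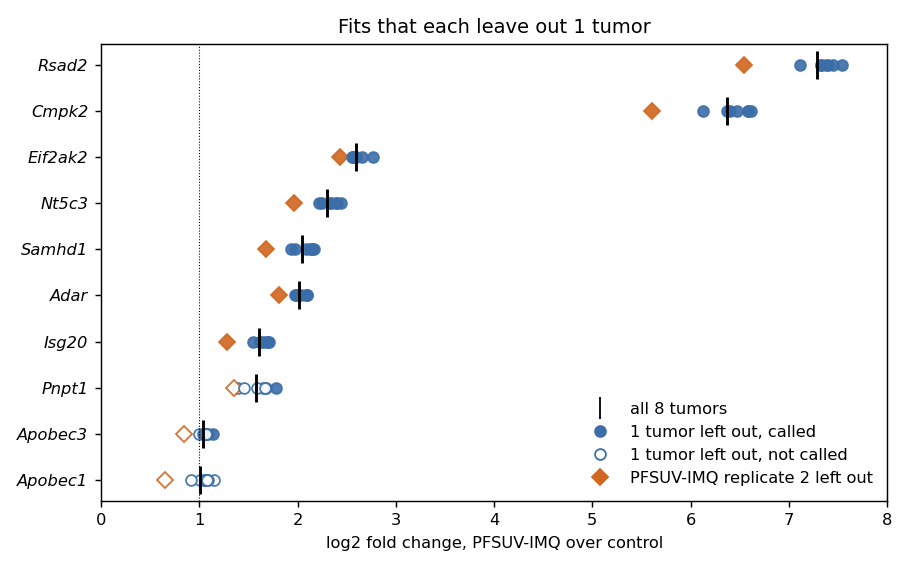
The log2 fold change of each member, PFSUV-IMQ over control, with all 8 tumors (vertical tick) and in 8 fits that each leave out 1 tumor, filled where the gene was called, open where not, with an orange diamond for the fit without PFSUV-IMQ replicate 2 and a dotted line at the limit of 1. That fit gave the lowest value for all 10 members, for example 6.54 for Rsad2 and 0.84 for Apobec3, and open symbols occur for Pnpt1, Apobec3 and Apobec1.

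Per kilobase of annotated exon, Rsad2 and Cmpk2 were the lowest members in control tumors and the highest in PFSUV-IMQ tumors, while the other 8 moved by at most 4 places in the order. In control tumors Apobec1 led at 30.3 ± 4.09 CPM per kb, followed by Samhd1 at 23.9 ± 5.27 and Isg20 at 14.5 ± 1.44, and Cmpk2 at 3.84 ± 1.53 and Rsad2 at 3.68 ± 0.92 were lowest (SD, n = 4). Apobec1 and Samhd1 overlapped in range, as did Isg20, Pnpt1 (10.5), Eif2ak2 (10.4) and Nt5c3 (9.89) between neighbors in that order, and Apobec3 (4.12), Cmpk2 and Rsad2, whereas the ranges of Samhd1 and Isg20, of Nt5c3 and Adar (4.96) and of Adar and Apobec3 were apart. In PFSUV-IMQ tumors Rsad2 led at 573 ± 459 CPM per kb, followed by Cmpk2 at 317 ± 260, Samhd1 at 98.1 ± 41.6, Eif2ak2 at 62.7 ± 17.4, Apobec1 at 60.8 ± 25.9, Nt5c3 at 48.7 ± 20.0, Isg20 at 44.3 ± 17.1, Pnpt1 at 31.3 ± 12.4, Adar at 20.1 ± 4.91 and Apobec3 at 8.48 ± 2.09. There each neighbor in the order overlapped the next except Adar and Apobec3. Without PFSUV-IMQ replicate 2 the order of the means was the same, with Rsad2 at 348 ± 103, Cmpk2 at 190 ± 60.0 and Samhd1 at 77.4 ± 2.94 CPM per kb (SD, n = 3). The length used is the union of all annotated exons, which lowers the value of a gene with long, rarely used exons.

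The 10 members together took 471 to 649 CPM in control tumors and 3081, 11421, 4360 and 4459 CPM in PFSUV-IMQ replicates 1 to 4. These sums are scaled by the TMM factors, lowest in PFSUV-IMQ replicate 2 (0.843), and are not shares of a tumor's counts. Rsad2 and Cmpk2 made up 4.48 to 6.44% of this sum in control tumors and 52.1 to 72.9% in PFSUV-IMQ tumors. PFSUV-IMQ replicate 2 was the highest tumor of its group for all 10 members. That tumor was the highest for 34.8% of all tested genes and for 88.4% of the 362 genes called higher. PFSUV-IMQ replicate 1 was the lowest of its group for 8 members, with replicate 3 lowest for Adar and replicate 4 for Isg20.

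Cell type markers were set beside this spread. Of the 7 macrophage and Kupffer cell markers, 1 was called, Vsig4, which fell (log2 fold change of -1.62, edgeR adjusted p = 0.0453), and their sum ran from 577 to 868 CPM in control and from 405 to 767 CPM in PFSUV-IMQ tumors. No tested marker of hepatocytes, HCC, plasmacytoid dendritic cells, T cells, B cells, NK cells, neutrophils, endothelium or fibroblasts was called. PFSUV-IMQ replicate 2 had the highest sum of the treated tumors for 7 of the 10 lists: hepatocyte (37149 CPM), macrophage and Kupffer cell (767 CPM), T cell (76.2 CPM), neutrophil, B cell, NK cell and plasmacytoid dendritic cell markers. For the last 4 lists, and for hepatocyte markers, it also lay above every control tumor, with 133 against 17.0 to 59.5 CPM for neutrophil, 20.8 against 1.94 to 8.08 CPM for B cell, 19.4 against 4.24 to 10.3 CPM for NK cell and 8.17 against 3.92 to 6.79 CPM for plasmacytoid dendritic cell markers. The NK cell sum in that tumor was nearly all Eomes (18.4 CPM), whereas Ncr1 (0.768 CPM) and Klrb1c (0.140 CPM) lay within their control ranges, and Siglech, which defines plasmacytoid dendritic cells, was at 3.14 CPM against 2.30 to 4.57 CPM in control tumors. The defining neutrophil marker Ly6g and the NK marker Klrb1c were at 0 in at least 1 tumor. The part of these cells in the members' levels was not tested.

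Related genes that are not members, among them enzymes, their partners and their regulators, were compared in the same fit, and none of them was called. The 5 lists hold 83 genes, of which 78 were tested. None of these passed by edgeR or by the Wald test of DESeq2. By edgeR, 2.26% of all tested genes were called higher and 0.200% lower, so 78 genes would hold few calls at that share. An unadjusted edgeR p under 0.05 was found for 5 of the 78, against 2078 of all 15998 tested genes. The median log2 fold change of the related genes was -0.12, and for 67 of the 78 the 95% interval lay within 1 log2 unit of no change, against 59.5% of all tested genes. The nucleotide pool list (27 genes, from ribonucleotide reductase to thymidylate synthase and the 5′-nucleotidases) had a median of -0.09 and held 4 of the 5 genes with a low unadjusted p: Dck (0.91, edgeR adjusted p = 0.292), a kinase of deoxynucleoside salvage, and, on the negative side, Tk1, Umps and Nt5c2. The deaminase and editing list (7 of 12 tested) had a median of -0.04, and its other genes had too few counts to be tested. The RNA exonuclease list (14 genes, not all of them exonucleases) had a median of -0.06. In it Xrn1, the cytoplasmic 5′ to 3′ exonuclease, came nearest to a call with a log2 fold change of 0.83 ± 0.21 (SE, edgeR adjusted p = 0.0808). The eIF2 kinases and regulators (15 genes) had a median of -0.06, with Atf4 at 0.35 and Ddit3 at 0.19, and the radical SAM and iron-sulphur genes (15 genes) had a median of -0.20. Dck, Tk1, Umps, Nt5c2, Xrn1, Atf4 and Ddit3 were named after their values were seen.

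**Figure D3:**
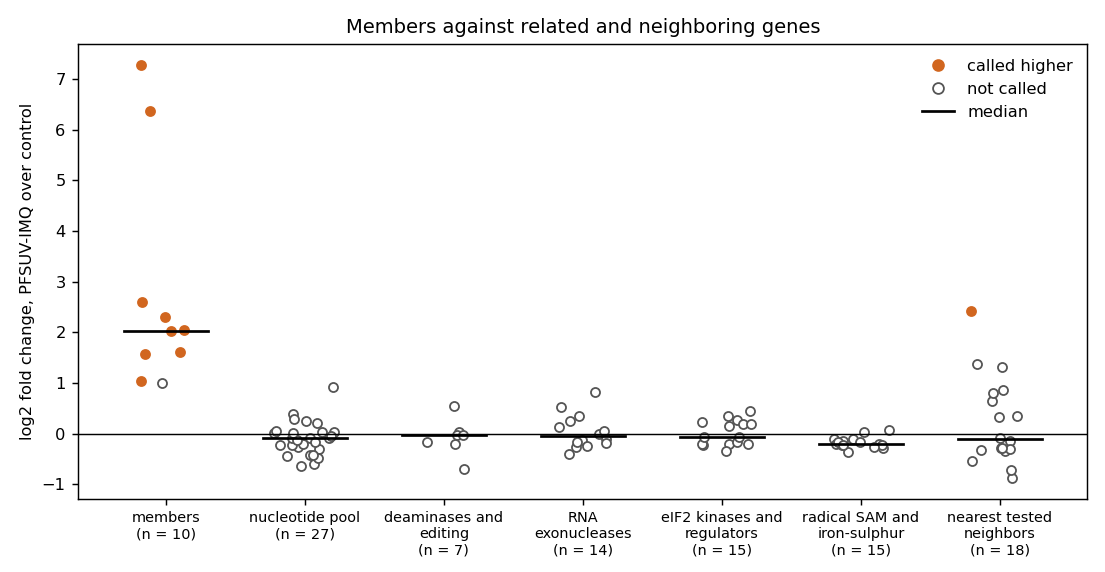
The log2 fold change, PFSUV-IMQ over control, of the 10 members, of the tested genes of 5 related lists and of the 18 nearest tested neighbors of the members (608 to 877812 bases away), with filled points called higher, open points not called and bars at the medians. The members' median is 2.03, and no related gene is filled, while 1 neighbor, Gm6548, is.

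In 8 pairs, 5 members were set against close relatives within each tumor, and the member rose against the relative in each pair. Cmpk1, the cytosolic counterpart of Cmpk2, had a log2 fold change of 0.04, with 137 ± 44.0 CPM in control and 141 ± 40.5 CPM in PFSUV-IMQ tumors (SD, n = 4). The ratio of Cmpk2 to Cmpk1 thus went from 0.0926 to 0.128 in control tumors to 5.59 to 16.0 in PFSUV-IMQ tumors, a difference of 6.07 on the log2 scale. The other eIF2 kinases, Eif2ak1 (activated by heme shortage), Eif2ak3 (PERK, of the endoplasmic reticulum) and Eif2ak4 (GCN2, of amino acid shortage), had log2 fold changes of -0.21, -0.23 and -0.21. The log2 ratio of Eif2ak2 to each was higher by 2.75, 2.76 and 2.73 in the PFSUV-IMQ tumors. Without PFSUV-IMQ replicate 2 the difference of Cmpk2 to Cmpk1 was 5.73, and those of Eif2ak2 were 2.58, 2.61 and 2.64.

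Nt5c3 rose against Nt5c3b, whose ratio was 1.33 to 2.40 in control and 5.91 to 23.3 in PFSUV-IMQ tumors (log2 difference of 2.66), and Adar against Adarb1, whose ratio was 2.11 to 3.03 and 7.62 to 23.8 (1.99). Isg20 rose against Isg20l2 by 1.53 and against Aen, an exonuclease gene that lies 2215 bases from it, by 1.23 log2 units. Without PFSUV-IMQ replicate 2 these log2 differences were 2.27 (Nt5c3 to Nt5c3b), 1.61 (Adar to Adarb1), 1.29 (Isg20 to Isg20l2) and 0.74 (Isg20 to Aen). The log2 ratio of Isg20 to Aen was 2.03 in that tumor. It was -0.07, 0.14 and 0.05 in PFSUV-IMQ replicates 1, 3 and 4, and -0.89 to -0.49 in control tumors. In all 8 pairs each difference reached an exact two-sided permutation p of 0.0286, the smallest that 4 against 4 tumors allow, or 0.0357 after adjustment over the 10 pairs. The members and related lists were chosen with earlier results known, and each member already separated the groups. This p was therefore nearly fixed in advance and adds no support of its own. Eif2ak2 and Isg20 recur among the pairs, which are thus not independent. No relative in these pairs was called. For Rsad2 and Pnpt1, Rsad1, another radical SAM gene, and Supv3l1, the mitochondrial helicase partner of Pnpt1, were added to the plot after their values were seen, with log2 fold changes of -0.21 and -0.27, neither called.

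**Figure D4:**
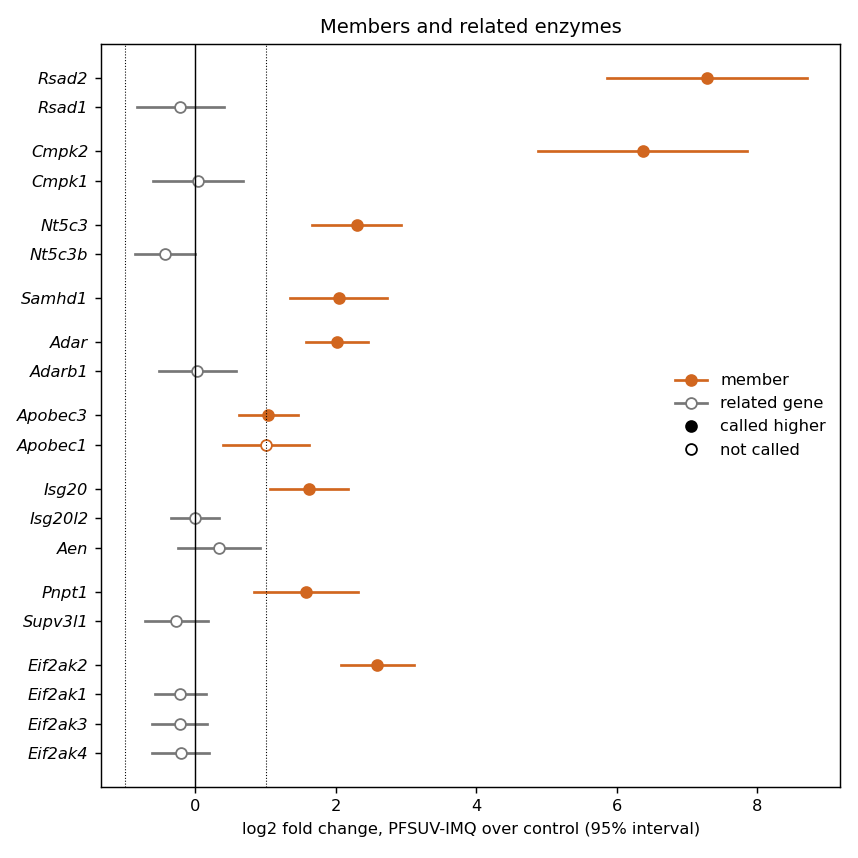
The log2 fold change, PFSUV-IMQ over control, with its 95% interval for the 10 members (orange) and 10 related genes (gray), filled where called higher and open where not, with dotted lines at -1 and 1. The members lie at 1.01 or above, while the relatives lie between -0.43 for Nt5c3b and 0.34 for Aen.

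Around the members, 18 tested genes are the nearest on either side, at distances of 608 to 877812 bases, and 1 of them was called higher. This is Gm6548, a processed pseudogene 608 bases past the 3′ end of Eif2ak2 on the same strand of chromosome 17. It measured 22.6, 23.2, 25.8 and 29.1 CPM in control replicates 1, 3, 4 and 5 and 100.3, 152, 155 and 134 CPM in PFSUV-IMQ replicates 1 to 4. Its log2 fold change was 2.43 ± 0.19 (SE, edgeR adjusted p = 0.000499), near that of Eif2ak2. As a pseudogene it may share reads with a related copy, so its level is uncertain. Sult6b1, on the other side of Eif2ak2, was not called (log2 fold change of 1.32, edgeR adjusted p = 0.0764) but was by the Wald test of DESeq2 (adjusted p = 0.0119). Gm26637, a noncoding gene on the opposite strand that shares 3.40% of the exon bases of Eif2ak2, was called higher (log2 fold change of 1.59, edgeR adjusted p = 0.0227) at 1.12 ± 0.20 CPM in control and 3.38 ± 0.81 CPM in PFSUV-IMQ tumors. Without the strand setting, reads from the 174 exon bases that Gm26637 and Eif2ak2 share cannot be told apart. Sult6b1, Gm26637, Rnf144a, Sox11, Chrnb2 and D730005E14Rik were named after their values were seen. Of the 50-base stretches in a member's longest transcript, at most 0.899% also occurred in a transcript of another gene (Apobec3), and none did in 7 members. Reverse complements were not searched, so sequence shared with a gene on the opposite strand, as between Adar and Chrnb2, is not counted here.

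For 3 members, the 3 tested genes outside the set of 10 with the most similar pattern were listed, by the root mean square difference of log2 CPM over the 8 tumors after centring each gene on its mean. Nearest to Rsad2 among these were Ifit1 (0.58), Mx1 (0.63) and Ifit3b (0.78), and the nearest member, Cmpk2 (0.69), lay between Mx1 and Ifit3b. Nearest to Eif2ak2 were Parp11 (0.20), Gm6548 (0.21) and Ddx58 (0.21), and the nearest member was Nt5c3 (0.29). Nearest to Apobec1 were Tbk1 (0.08), Slc39a14 (0.09) and Srrm4 (0.12), and the nearest member was Apobec3 (0.20). All 8 tumors share the group contrast, so that a gene with a like fold change comes out as near.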

How the data were processed

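The authors deposited whole-number counts of reads per gene for 8 tumors, which were the input of every test, and a table of signal values, the counts divided by 1 DESeq2 size factor per tumor (largest relative departure 5.4e-10), used here only for gene symbols. The submitters' processing notes list Trimmomatic 0.38, HISAT2 2.1.0 and featureCounts 2.0.0, whereas the methods of the study name TopHat and HTSeq; which made the counts was not settled. All 55536 identifiers matched GENCODE M21 on GRCm38, which gave coordinates and exon lengths.

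Counts were tested in R 4.3.3 with edgeR 4.0.16 (TMM, its default low-count filter, quasi-likelihood test, Benjamini-Hochberg over 15998 genes), with limma 3.58.1 and DESeq2 1.42.0 as alternatives, in a script tested on simulated data. Calls required an adjusted p under 0.05 together with a change beyond 1 log2 unit. Log2 ratios of 10 gene pairs used a prior of 0.5 CPM and exact permutation tests. Per-tumor depth is given with the results. No batch is given in the labels. Both groups hold tumors numbered 1, 3 and 4, which are different animals.

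The members, related lists and marker lists were chosen with earlier results of these data known, and the study itself names Rsad2 and Cmpk2 among its changed genes. All members, the paired and called related genes, the called neighbors and the 3 nearest-pattern genes of at most 3 members were named; others are said to be named after their values were seen.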

Additional observations from a re-analysis of the deposited data

Results flagged for a closer look

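Of 20 groups of 4 tumors (10 members in each treatment group), 3 had a tumor set apart from the rest by Dixon's ratio, where chance flags about 1 group in 20. Rsad2 was lowest in control replicate 4, at 10.1 CPM, against 17.4 to 18.9 CPM in the other 3 control tumors. Samhd1 was highest in PFSUV-IMQ replicate 2, at 1468 CPM, against 683 to 736 CPM in the other treated tumors. Isg20 was highest in the same tumor, at 130 CPM, against 64.9 to 69.2 CPM.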

How the results depend on the processing

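No member changed direction under any of 17 alternatives. Of the 170 log2 fold changes so obtained, 150 kept their side of the threshold, 19 were no longer past it and 1, Apobec1 by the Wald test of DESeq2, newly passed. Besides the 12 of these losses on leaving out a tumor (Apobec3 and Pnpt1), glmTreat ended the calls of Samhd1, Isg20, Pnpt1 and Apobec3 (5 members called), and upper-quartile normalization, which moved the median of all genes to -0.10, ended that of Apobec3 (0.96). The block described below ended the other 2. Leaving out 1 tumor gave 7 to 9 members called, 197 to 375 genes higher and 8 to 38 genes lower, against 362 and 32 in the reported fit, with the higher count down by over 1.5 times without control replicate 1, 3 or 4 and the lower count without these or PFSUV-IMQ replicate 3 or 4. The counts were 618 higher and 133 lower with DESeq2, 119 and 1 with glmTreat, 63 lower with no filter on low counts and 21 lower with limma-voom. A fit with 2 neighbors called, Gm6548 and Sult6b1, came from DESeq2 and from requiring 10 counts in every tumor. The difference between the groups in the log2 ratio of Apobec3 to Apobec1, 0.07, ran from -0.0081 without control replicate 1, a change of sign, to 0.18 without PFSUV-IMQ replicate 2 and was 0.27 with the replicate block. The other 109 of 110 values of gene pairs kept their sign.

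With the replicate number as a block, 7 members (not Apobec3, Pnpt1 or Apobec1), 416 genes higher (2.60%), 267 lower and 1 related gene, A1cf (log2 fold change of -2.68, edgeR adjusted p = 0.0117), were called. Only numbers 1, 3 and 4 are in both groups, so PFSUV-IMQ replicate 2 and control replicate 5 drop out of that contrast. Deviations of same-numbered tumors from their group means had correlations of 0.29, -0.27 and -0.32, and none correlated best with its own number. With only 3 shared numbers, this check cannot settle whether the numbers pair the tumors.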
